A study of Mus musculus with 12 samples.

Results

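The 8 genes described here were Hmgcs1, Idi1, Fdft1, Sqle, Lss, Cyp51, Insig1 and Srebf2, which belong to cholesterol synthesis and to its control by the transcription factor SREBP2. They were found by gene symbol and read by Ensembl identifier among 55414 gene records, and all 8 had enough counts to be tested on day 0 (14064 genes) and on day 2 (14041 genes). The genes were chosen by their levels in the 4 groups of the same libraries, so their levels and fold changes are a description and carry no test. RNA of splenic CD4+ T cells from wild-type male BALB/c mice aged 18 weeks was sequenced as 12 libraries, 3 in each of the 4 groups. The LIP group carried a silk ligature around a molar (ligature-induced periodontitis), and the CTL group of healthy animals did not. Libraries of day 0 were made from uncultured cells, and those of day 2 after 2 days of culture with IL-2 and with antibodies to TCRβ and CD28, so the culture was common to both groups of day 2 and day 2 has no unstimulated culture beside it. The labels name anti-CD29 in place of anti-CD28 for the day 2 libraries CTL 93 and LIP 96, and anti-CD30 for both day 2 libraries numbered 97. They do not say whether the libraries of a group came from separate animals, so the errors given here measure the spread between libraries.

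Cholesterol is built from acetyl-CoA by a chain of enzymes that first makes mevalonate and isoprenoid units, then joins them into squalene, and finally closes and trims the sterol ring. When the endoplasmic reticulum is poor in sterols, SCAP carries SREBP2 to the Golgi, where it is cut, and the released part enters the nucleus and binds sterol regulatory elements, often beside sites for the factors NF-Y and Sp1. INSIG1 holds SCAP and SREBP2 back when sterols are plentiful, and its own gene is a target of SREBP2. T cells that begin to divide need sterols for new membrane, and this pathway is known to be induced after stimulation of the T cell receptor.

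In the mevalonate arm, Hmgcs1 (cytosolic HMG-CoA synthase, ENSMUSG00000093930) lies on the plus strand of GRCm39 at chr13:120151915-120170470, and Idi1 (isopentenyl diphosphate isomerase, ENSMUSG00000058258) on the same strand and chromosome at chr13:8935537-8942487. In the squalene and sterol arm, Fdft1 (squalene synthase, which commits farnesyl diphosphate to sterols, ENSMUSG00000021273) lies at chr14:63382189-63417027 on the minus strand. Sqle (squalene epoxidase, an oxygen-dependent and rate-limiting step, ENSMUSG00000022351) lies at chr15:59186869-59203043 on the plus strand. Lss (lanosterol synthase, which closes the ring, ENSMUSG00000033105) is at chr10:76367298-76392976 on the plus strand, and Cyp51 (lanosterol demethylase, ENSMUSG00000001467) at chr5:4123416-4154751 on the minus strand. Of the regulators, Insig1 (ENSMUSG00000045294) is at chr5:28276315-28283668 and Srebf2, which encodes SREBP2 (ENSMUSG00000022463), at chr15:82031382-82093201, both on the plus strand. The counts cover the whole gene and do not separate exons or transcripts.

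The sequence around the start of each gene was not used to choose the genes. In GRCm39, 300 bases were searched on both strands, from 250 before the start of the GENCODE canonical transcript to 50 from it. The core of the sterol regulatory element, CACCCCAC, was found in 2 of the 8 genes, Hmgcs1 and Sqle, and in 3.02% of 21627 protein-coding promoters. A longer form with a free letter, TCACNCCAC, was found in 1 of the 8, Hmgcs1, where it overlaps the core match, and in 1.34% of promoters. CCAAT, the box of NF-Y, was present in 8 of 8 (39.9% of all promoters) and GGGCGG, the GC box of Sp1, in 7 of 8, Fdft1 being the exception (42.6% of all promoters). Among 15 other enzymes of the pathway, 10 held CCAAT, 11 the GC box and 1 (Acat2) the core element. A match is a run of letters and not a measured binding site. The sequences of Hmgcs1 and Sqle are shown because they hold the sterol element together with CCAAT boxes, and that of Idi1 because its CCAAT boxes lie next to each other. Capitals mark the sterol element and the CCAAT boxes on either strand (ATTGG is CCAAT read on the other strand). The stretch of Hmgcs1 is chr13:120151732-120151914, that of Sqle chr15:59186632-59186868 and that of Idi1 chr13:8935867-8935896, all on the plus strand of GRCm39. Those of Hmgcs1 and Sqle hold no exon base of their gene, whereas all 30 bases of Idi1 lie upstream of the canonical start but in an exon of another Idi1 transcript.
Hmgcs1: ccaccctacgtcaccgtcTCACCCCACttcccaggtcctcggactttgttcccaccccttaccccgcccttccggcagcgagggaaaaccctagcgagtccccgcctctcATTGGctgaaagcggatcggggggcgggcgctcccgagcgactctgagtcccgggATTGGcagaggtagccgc
Sqle: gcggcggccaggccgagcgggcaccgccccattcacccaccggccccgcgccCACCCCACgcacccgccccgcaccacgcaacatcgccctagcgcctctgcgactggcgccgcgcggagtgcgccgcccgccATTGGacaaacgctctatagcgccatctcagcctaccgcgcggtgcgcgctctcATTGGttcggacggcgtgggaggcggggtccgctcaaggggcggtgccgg
Idi1: ttgtgctagATTGGcaATTGGctggaggca

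**Figure D1:**
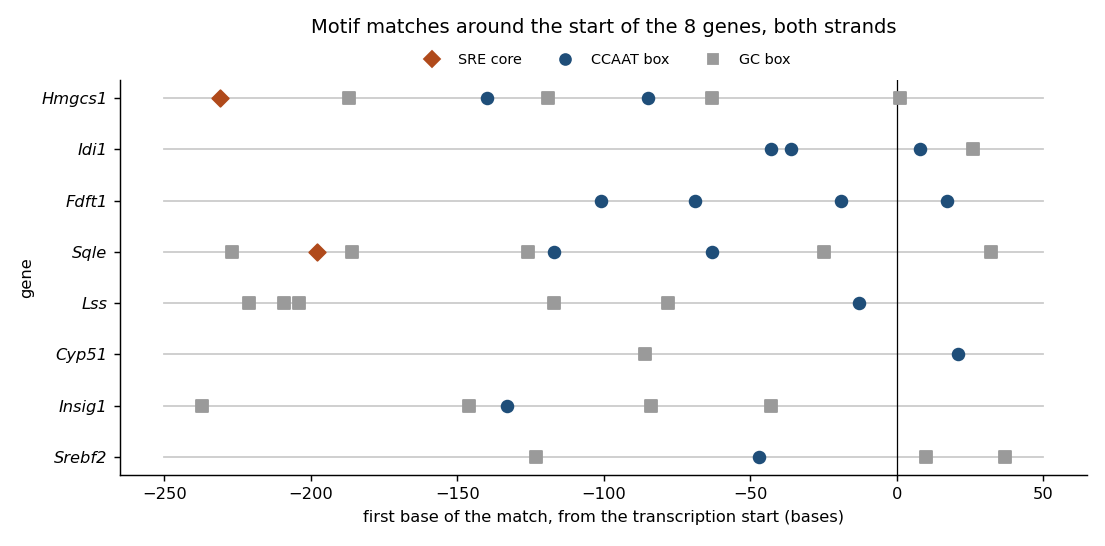
Matches of the sterol element core, the CCAAT box and the GC box on either strand in the 8 genes, plotted by the distance of the first base of the match from the transcription start in bases. Every gene has a CCAAT box, and 2 genes, Hmgcs1 and Sqle, have the core element.

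Total counts per library ranged from 6249018 to 7845676 on day 0 and from 8691699 to 12866718 on day 2. A count of 0 leaves room for up to 3 counts, or 0.233 to 0.480 CPM depending on the library (counting error only). The smallest count behind any value of the 8 genes was 100. The summed level of 5 defining genes of CD4 T cells (Cd3d, Cd3e, Cd3g, Trac and Cd4) lay between 1454 and 1989 CPM in all libraries, while that of Cd8a and Cd8b1 lay between 4.42 and 13.2 CPM. On day 2, LIP 90 stood apart from LIP 96 and LIP 97 in 7 of the 8 genes by more than the whole range of the CTL libraries. The day 2 fold changes of the 8 genes are therefore given with and without it. For some other genes only the value without LIP 90 is given. B cell markers (Ms4a1, Cd79a and Cd79b) summed to 15.0 CPM in LIP 96, 14.7 in LIP 97 and 9.86 in CTL 97 of day 2, against 0.804 in LIP 90 and 2.32 and 2.38 in CTL 92 and CTL 93. On day 0, pancreatic acinar genes (Cpa1, Prss2, Pnlip, Cel and Try4) summed to 0.138, 11.2 and 4.27 CPM in LIP 92, 93 and 94 and were at 0 in the CTL libraries. On day 2 the direction was the other, with 8.86, 10.0 and 5.10 CPM in CTL 92, 93 and 97. LIP 90, 96 and 97 held 3.31, 5.05 and 2.97 CPM. The part of these markers in the results was not tested.

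Levels were expressed as CPM, each count scaled to the TMM-normalized library total, and compared between genes only per kilobase of the canonical transcript. In the CTL group of day 0, Srebf2 had the highest level per kilobase, 40.5 ± 4.83 CPM per kb (SD, n = 3), and Lss the lowest, 3.71 ± 0.54. Between them came Hmgcs1 (11.1 CPM per kb), Insig1 (10.6), Idi1 (8.24), Cyp51 (6.04), Sqle (5.52) and Fdft1 (4.63). Srebf2 thus stood above the enzymes among these 8 genes in resting cells, though not above Lbr, another enzyme of the pathway (47.4 CPM per kb). Hmgcs1 and Insig1 overlapped, as did neighbours in the order Cyp51, Sqle, Fdft1 and Lss. In the CTL group of day 2 the order was Idi1 (161 ± 17.7 CPM per kb), Hmgcs1 (155 ± 5.23), Srebf2 (110 ± 10.2), Cyp51 (103 ± 12.1), Insig1 (67.2 ± 8.33), Sqle (55.8 ± 3.74), Fdft1 (50.7 ± 1.97) and Lss (21.7 ± 2.29). There the pairs Idi1 and Hmgcs1, Srebf2 and Cyp51, and Sqle and Fdft1 overlapped. In the LIP group, the order on day 0 had Sqle (9.21 ± 0.13) above Cyp51 (7.92 ± 0.54) without overlap, and on day 2 every neighbouring pair overlapped except Sqle and Lss.

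In uncultured cells, the LIP mean of all 8 genes was above the CTL mean, and for 5 of them (Idi1, Fdft1, Sqle, Cyp51 and Insig1) every LIP library lay above every CTL library. Over all genes tested on day 0, the LIP libraries lay above the CTL libraries in this way for 9.28%, and nothing is read from that count since these levels chose the genes. Without normalization factors, Hmgcs1 and Lss joined them, giving 7 of 8. Sqle differed most: its levels were 15.0, 17.7 and 13.8 CPM in CTL 88, 89 and 94, and 25.7, 25.6 and 26.3 CPM in LIP 92, 93 and 94. The LIP libraries of Sqle had an SD of 0.37 CPM and did not overlap with the CTL libraries, at a log2 fold change of 0.74 (SE 0.12).

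In the mevalonate arm on day 0, Idi1 was at 23.6, 20.2 and 20.2 CPM in the CTL libraries and at 29.0, 30.5 and 30.3 CPM in the LIP libraries. These groups did not overlap, and the log2 fold change was 0.50 (SE 0.11). Hmgcs1 was at 52.0, 40.9 and 43.1 CPM in the CTL group and at 60.0, 49.6 and 53.5 CPM in the LIP group. CTL 88 lay within the LIP range of Hmgcs1, and the log2 fold change was 0.27 (SE 0.11).

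In the sterol arm on day 0, Cyp51 was at 30.5, 33.1 and 26.5 CPM in the CTL libraries and at 42.4, 37.2 and 38.5 CPM in the LIP libraries, a log2 fold change of 0.40 (SE 0.11). Fdft1 was at 17.1, 17.1 and 14.0 CPM in CTL and at 19.9, 19.7 and 20.4 CPM in LIP, a log2 fold change of 0.32 (SE 0.12). For both genes the lowest LIP library lay above the highest CTL library. Lss was at 22.6, 27.5 and 20.9 CPM in CTL and at 30.4, 26.5 and 26.7 CPM in LIP, so that CTL 89 lay above LIP 93 and LIP 94, and the log2 fold change was 0.24 (SE 0.12).

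Of the regulators on day 0, Insig1 was at 29.9, 29.8 and 27.3 CPM in the CTL group and at 37.3, 34.4 and 30.7 CPM in the LIP group, with a log2 fold change of 0.24 (SE 0.10) and a narrow gap between CTL 88 and LIP 94. Srebf2 was at 198, 233 and 185 CPM in CTL and at 228, 214 and 223 CPM in LIP. All LIP values of Srebf2 lay inside the CTL range, and its log2 fold change was 0.12 (SE 0.08). Leaving out CTL 94 brought Srebf2 to 0.04 (SE 0.08) and Lss to 0.15 (SE 0.12), and leaving out CTL 89 brought them to 0.21 and 0.36. Summed, the 8 genes came to 386 ± 34.0 CPM in CTL and to 453 ± 18.0 CPM in LIP (SD, n = 3).

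**Figure D2:**
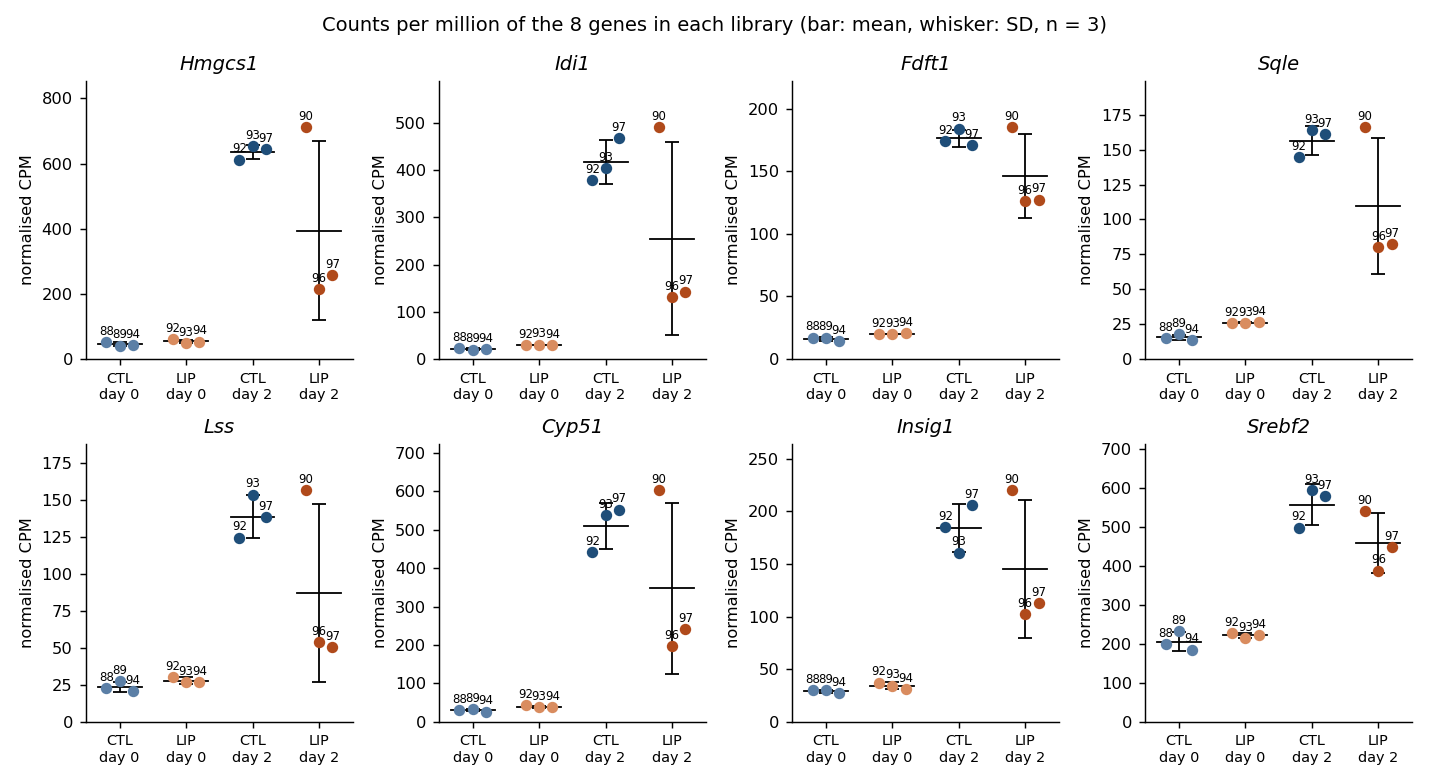
Level of each of the 8 genes in CPM (linear axis from 0) in every library, labelled with its number, with the mean (bar) and SD (whisker) of the 3 libraries of a group. All genes rise to the right in both groups, and on day 2 the library LIP 90 sits at the level of the CTL libraries while LIP 96 and LIP 97 sit below them.

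Over the 2 days of culture, all 8 genes were higher on day 2 than on day 0 in every library of both groups. Over all genes tested, every day 2 library lay above every day 0 library for 37.2% in CTL and 37.4% in LIP, and an adjusted p under 0.05 (edgeR's quasi-likelihood test) was reached by 69% and 71.8% of genes in either direction and by 35.3% and 36.6% in the upward direction. In the CTL group, Idi1 was highest in fold, with a log2 fold change of 4.29 (SE 0.43, 19.6-fold), followed by Cyp51 at 4.09 (SE 0.35, 17.0-fold) and Hmgcs1 at 3.81 (SE 0.36, 14.1-fold). Fdft1 and Sqle stood at 3.45 (SE 0.15) and 3.33 (SE 0.25). Insig1 and Lss were at 2.66 (SE 0.24) and 2.55 (SE 0.35), and Srebf2, the gene of the regulator, at 1.44 (SE 0.13, 2.71-fold).

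In the LIP group the same comparison gave log2 fold changes of 3.14 (SE 0.33) for Cyp51, 3.09 (SE 0.40) for Idi1, 2.87 (SE 0.15) for Fdft1 and 2.86 (SE 0.35) for Hmgcs1. Those of Insig1, Sqle, Lss and Srebf2 were 2.09 (SE 0.24), 2.09 (SE 0.23), 1.65 (SE 0.34) and 1.05 (SE 0.13). Each of the 8 values was smaller than that of the CTL group. Without LIP 90 they fell further, to 2.48 for Cyp51, 2.20 for Idi1, 2.67 for Fdft1, 2.12 for Hmgcs1, 1.66 for Insig1, 1.66 for Sqle, 0.92 for Lss and 0.92 for Srebf2. Every one of them stayed above 0 without that library.

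**Figure D3:**
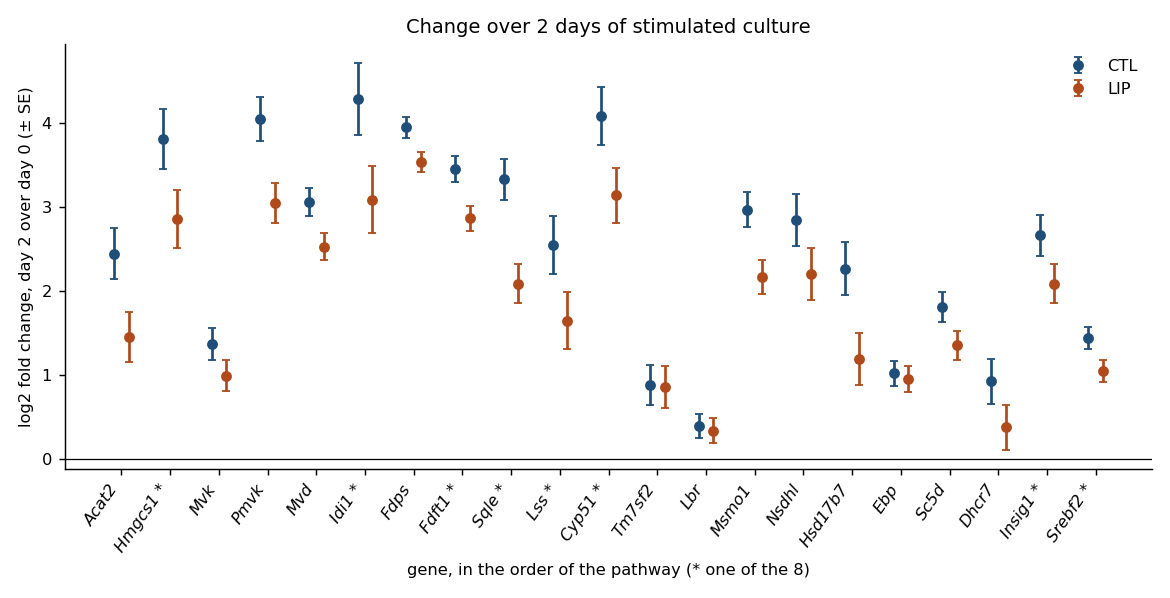
Log2 fold change of day 2 over day 0 (± SE) for the 8 genes (asterisks) and 13 other enzymes in the order of the pathway, in the CTL group (blue) and the LIP group (orange), from the fit of 12 libraries. The CTL value is above the LIP value for each of the 8 genes and each of the other 13.

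After stimulation, the LIP mean of all 8 genes was below the CTL mean, but the LIP libraries did not move together. In LIP 96 and LIP 97, 8 of 8 genes lay below every CTL library of day 2, whereas in LIP 90 none did. LIP 90 lay above every CTL library for 7 of the 8 genes, Srebf2 being the exception, but with TMM normalization within the day this held for 4 genes and without normalization factors for 3. No gene of the 8 therefore had every LIP library below every CTL library (10.5% of all genes tested did; without normalization factors Srebf2 did), and without LIP 90 all 8 had (24.7% of all genes tested did). These counts, too, come from the levels that chose the genes.

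Among the 8 genes, Idi1 and Hmgcs1 had the lowest log2 fold changes on day 2, with Lss of the sterol arm close to Hmgcs1. Hmgcs1 was at 612, 652 and 644 CPM in CTL 92, 93 and 97 and at 711, 214 and 258 CPM in LIP 90, 96 and 97. Idi1 was at 379, 405 and 468 CPM in the CTL libraries and at 491, 131 and 143 CPM in the LIP libraries. LIP 90 held the highest value of both genes on that day, and the other LIP libraries held 31.5% to 40.7% of the CTL level (the geometric mean of the 3 CTL libraries, after adding 0.5 CPM). The log2 fold change was -0.71 (SE 0.39) for Hmgcs1 and -0.73 (SE 0.45) for Idi1 with all libraries, and -1.41 (SE 0.13) and -1.59 (SE 0.13) without LIP 90.

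In the sterol arm on day 2, Lss was at 124, 154 and 138 CPM in the CTL group and at 157, 53.9 and 50.7 CPM in the LIP group. Cyp51 was at 442, 538 and 553 CPM in CTL and at 604, 196 and 242 CPM in LIP. LIP 96 and LIP 97 held 36.9% to 47.6% of the CTL level of these genes. The log2 fold change without LIP 90 was -1.39 (SE 0.13) for Lss and -1.20 (SE 0.15) for Cyp51, against -0.69 (SE 0.39) and -0.57 (SE 0.37) with it. The enzymes around squalene differed less. Sqle was at 145, 164 and 161 CPM in CTL and at 166, 80.5 and 82.2 CPM in LIP, and Fdft1 at 174, 184 and 171 CPM in CTL and at 185, 126 and 127 CPM in LIP. Their log2 fold changes were -0.53 (SE 0.26) and -0.28 (SE 0.16) with all libraries and -0.93 (SE 0.11) and -0.46 (SE 0.10) without LIP 90.

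Of the regulators on day 2, Insig1 was at 185, 161 and 206 CPM in the CTL group and at 220, 102 and 113 CPM in the LIP group, with a log2 fold change of -0.36 (SE 0.27), or -0.76 (SE 0.13) without LIP 90. Srebf2 was at 498, 595 and 579 CPM in CTL and at 540, 388 and 449 CPM in LIP, with a log2 fold change of -0.29 (SE 0.15), or -0.40 (SE 0.13) without LIP 90. Srebf2 was the gene of the 8 for which LIP 90 lay inside the CTL range. The 8 genes summed to 2777 ± 192 CPM in CTL and 1943 ± 983 CPM in LIP (SD, n = 3), the LIP libraries 90, 96 and 97 holding 3073, 1291 and 1465 CPM.

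Values that moved with the level of these genes in LIP 96 and LIP 97 included the B cell markers given above and Cd8a with Cd8b1, which summed to 13.2 and 9.18 CPM there against 4.42 to 6.32 CPM in the other libraries of day 2. Of 5 myeloid markers, S100a8 was at 0, and the sum was 2.06 and 1.68 CPM in LIP 96 and LIP 97 against 1.07 CPM in LIP 90 and 0.567 to 0.738 CPM in the CTL libraries. CTL 97 carried B cell markers at 9.86 CPM and held the 8 genes at 2921 CPM in sum, the highest of the CTL libraries. CTL 93 and CTL 97, which share with LIP 96 and LIP 97 the antibodies named in the labels, held 2852 and 2921 CPM. Of these libraries LIP 96 had a total count of 12175077 and LIP 97 of 8691699, either side of the CTL libraries. Whether the markers, the labelled antibodies or depth had a part in these levels was not tested. In bulk RNA, fewer cells that express a gene and less RNA of it in each cell cannot be told apart.

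**Figure D4:**
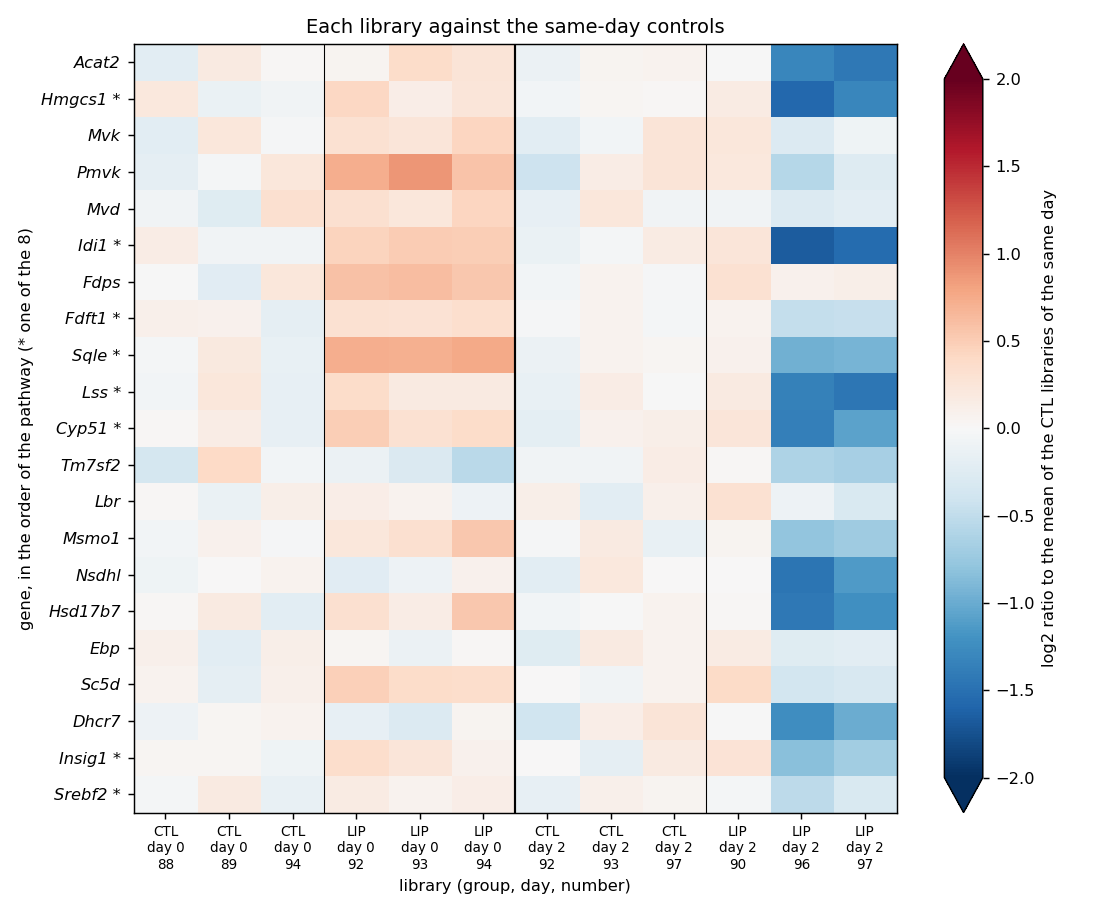
Log2 ratio of each library to the mean of the CTL libraries of its own day (after adding 0.5 CPM) for the 8 genes (asterisks) and 13 other enzymes, with red above and blue below. The LIP libraries of day 0 are mostly red, LIP 90 of day 2 is near white, and LIP 96 and LIP 97 are blue for most genes but not for Fdps.

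The difference between the LIP effect of day 2 and that of day 0 was negative for all 8 genes. It was -1.25 (SE 0.33) on the log2 scale for Sqle, -1.20 (SE 0.55) for Idi1, -0.95 (SE 0.47) for Hmgcs1 and -0.95 (SE 0.44) for Cyp51. The others were Lss at -0.90 (SE 0.47), Fdft1 at -0.58 (SE 0.21), Insig1 at -0.57 (SE 0.33) and Srebf2 at -0.39 (SE 0.18). Sqle thus led this list, having the largest positive difference of the 8 on day 0. Over all genes, 0.0517% of 15475 had an adjusted p under 0.05 for this interaction (edgeR's quasi-likelihood test). Without LIP 90 the share was 10.1%, and the values were -2.10 (SE 0.15) for Idi1, -1.70 (SE 0.16) for Hmgcs1, -1.68 (SE 0.15) for Sqle, -1.64 (SE 0.18) for Lss and -1.61 (SE 0.18) for Cyp51. Those of Insig1, Fdft1 and Srebf2 were -1.01 (SE 0.16), -0.79 (SE 0.14) and -0.52 (SE 0.15).

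The 15 other enzymes of the pathway were not chosen by the rule, and their differences were tested with edgeR's quasi-likelihood test and Benjamini-Hochberg adjustment over all genes, although their list was set with earlier results of these data known. On day 0, 60 of 14064 genes (0.427%) had an adjusted p under 0.05, and 0 of the 15 enzymes were among them. Of these enzymes 11 had a positive and 4 a negative log2 fold change, with a median of 0.32 beside 0.01 over all genes tested and 0.30 over the 8 genes, and 5 had an unadjusted p under 0.05. DESeq2 also called 0 of the 15. Fdps (farnesyl diphosphate synthase, the step before Fdft1) was at 12.2, 10.3 and 14.4 CPM in the CTL libraries and at 18.6, 19.1 and 17.9 CPM in the LIP libraries, at a log2 fold change of 0.59 (SE 0.14, adjusted p = 0.116). Pmvk (phosphomevalonate kinase) stood at 0.81 (SE 0.25, adjusted p = 0.18). Without CTL 94, 2 of the 15 (Fdps and Sc5d) passed, with adjusted p of 0.0138 and 0.0440, and 658 genes did in all, so the count of day 0 depends on that library.

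On day 2, 0 of 14041 genes (0%) had an adjusted p under 0.05 by edgeR, 2322 had an unadjusted p under 0.05, and DESeq2 called 489. Of the 15 enzymes 0 were called by either tool and 1 (Acat2) had an unadjusted p under 0.05. Their log2 fold changes were negative for 14 of 15, and the lowest with all libraries was -0.78. Their median was -0.42, beside -0.01 over all genes tested and -0.55 over the 8 genes. Without LIP 90 these medians were -0.67, -0.00308 and -1.07. Without LIP 90, 13.9% of 14453 genes were called, and 8 of the 15 enzymes fell while 0 rose, among them Acat2 (-1.36), Hsd17b7 (-1.33), Nsdhl (-1.30), Dhcr7 (-1.14), Msmo1 (-0.75) and Tm7sf2 (-0.67), with adjusted p between 0.000201 and 0.0443. Acat2, which joins acetyl-CoA units at the head of the pathway, was at 78.8, 88.2 and 89.1 CPM in the CTL group and at 84.6, 34.2 and 31.3 CPM in the LIP group. Hsd17b7, a sterol ketone reductase, was at 44.3, 45.7 and 48.2 CPM in CTL and at 46.7, 16.8 and 19.4 CPM in LIP. The low libraries are the same as those of the 8 genes.

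The other 7 enzymes did not pass without LIP 90. Fdps was at 183, 200.5 and 188 CPM in the CTL group and at 237, 203 and 207 CPM in the LIP group, with a log2 fold change of 0.12 (SE 0.10, adjusted p = 0.465 by edgeR without LIP 90). It had the only positive value of the pathway on day 2, although it lies between Idi1 and Fdft1 in the chain. The remaining values without LIP 90 were -0.43 (SE 0.20) for Pmvk, -0.33 (SE 0.11) for Sc5d, -0.24 (SE 0.15) for Mvd, -0.22 (SE 0.15) for Ebp, -0.19 (SE 0.13) for Lbr and -0.18 (SE 0.18) for Mvk. Lbr and Tm7sf2 encode reductases that act on the same double bond of the sterol.

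**Figure D5:**
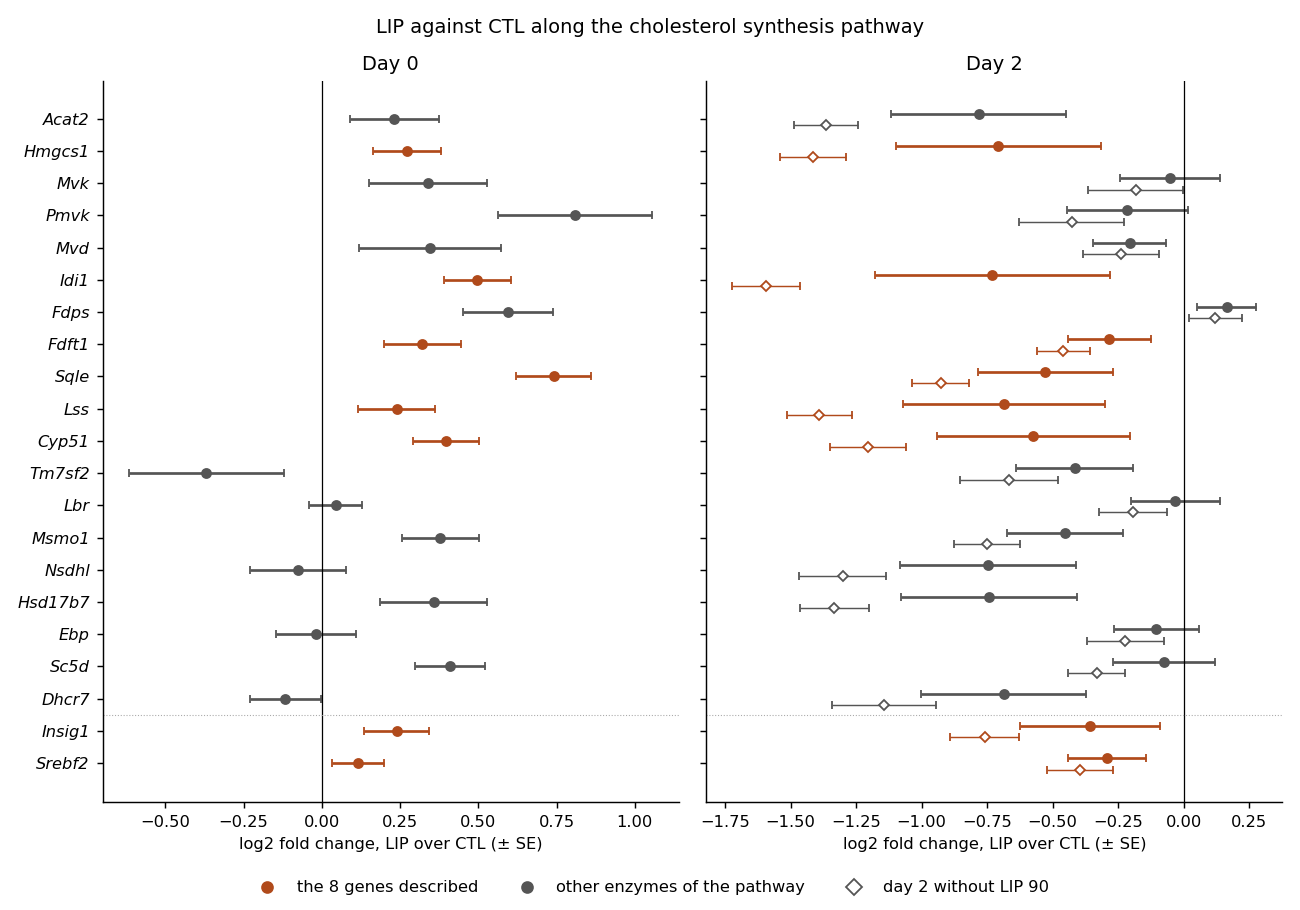
Log2 fold change of LIP over CTL (± SE) on day 0 and day 2 for the 8 genes (orange) and 13 other enzymes (grey), listed from the top in the order of the pathway with the regulators last; open diamonds give day 2 without LIP 90, and the horizontal scales of the panels differ. All 8 genes lie right of 0 on day 0 and left of 0 on day 2.

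In CTL all 15 of the other enzymes rose over the culture, and in LIP 13 did (edgeR, adjusted p under 0.05), Dhcr7 and Lbr being the exceptions in LIP. Of all genes tested, 35.3% rose in CTL and 36.6% in LIP. In the CTL group, Pmvk rose by a log2 fold change of 4.05 (SE 0.26, adjusted p = 1.7e-08), Fdps by 3.95 (SE 0.13, adjusted p = 1.69e-10) and Mvd by 3.07 (SE 0.17, adjusted p = 4.24e-09). The smallest rise was that of Lbr, at 0.39 (SE 0.15, adjusted p = 0.0285). The median of the 15 was 2.45 in CTL and 1.46 in LIP (1.07 without LIP 90), beside -0.02 and -0.00281 over all genes tested. For the interaction, all 15 had negative values with a median of -0.55 (-0.96 without LIP 90), and 0 passed with all libraries (7 had an unadjusted p under 0.05, and DESeq2 also called 0) against 9 without LIP 90.

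Of 9 genes whose products move, cut or degrade SREBP2 and its partners, 0 passed in LIP against CTL on either day with all libraries (edgeR; 0 on day 0 and 3 on day 2 had an unadjusted p under 0.05). Scap, the escort of SREBP2, was at 96.8, 122 and 110 CPM in the CTL group of day 2 and at 100.5, 82.1 and 80.6 CPM in the LIP group, with a log2 fold change of -0.33 (SE 0.13, adjusted p = 0.274 by edgeR), or -0.41 (SE 0.12, adjusted p = 0.0537) without LIP 90. Without LIP 90, 1 gene of the 9 rose and 1 fell, beside 13.9% of all genes tested that were called. The gene that fell was Rnf145, a ubiquitin ligase of the endoplasmic reticulum (-0.93, adjusted p = 0.000709 by edgeR). Over the culture in CTL, 6 of the 9 rose and 1 fell, beside 69% of all genes tested that were called in either direction. Among them were Srebf1, which encodes SREBP1, at 1.28 (SE 0.10), Insig2 at 0.76 (SE 0.14) and Scap at 0.66 (SE 0.12).

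Of 9 genes of cholesterol uptake and transport, 0 passed in LIP against CTL on either day with all libraries by edgeR, and 2 on each day had an unadjusted p under 0.05. Without LIP 90 on day 2, 3 fell and 2 rose, beside 13.9% of all genes tested that were called. Scarb1 (-0.59, SE 0.15, adjusted p = 0.0274 by edgeR) and Stard4 (-0.49, SE 0.11, adjusted p = 0.0221) were among those that fell, while Npc2 and Osbp rose. Over the culture in CTL, 6 of the 9 rose and 2 fell, beside 69% of all genes tested that were called in either direction. Among them were Tmem97 at 3.59 (SE 0.31), Scarb1 at 2.59 (SE 0.19) and Stard4 at 1.98 (SE 0.17).

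Among 10 genes of the oxysterol receptors LXR, efflux and esterification, 7 were tested, and 0 passed in LIP against CTL on either day with all libraries (edgeR; 1 on each day had an unadjusted p under 0.05). Without CTL 94, Abca1 was higher in LIP on day 0 (0.61, adjusted p = 0.0160 by edgeR, against 0.44 and 0.211 with all libraries). Over the culture, Mylip, Abcg1 and Abca1 fell in the CTL group by 3.74 (SE 0.16), 3.17 (SE 0.24) and 2.08 (SE 0.24) on the log2 scale, while Lpcat3 rose by 1.26 (SE 0.14). Without LIP 90, 2 of the 7 were higher in LIP on day 2 (Abcg1 and Soat2) and 1 was lower (Soat1), beside 13.9% of all genes tested that were called. Abcg1 stood at a log2 fold change of 0.96 (SE 0.17, adjusted p = 0.00718 by edgeR), and Abca1 at -0.50 (SE 0.31, adjusted p = 0.318). Soat1 and Soat2 both encode enzymes that esterify cholesterol and were named after their values were seen. Soat1 was at 114, 139 and 123 CPM in the CTL libraries of day 2 and at 151, 74.9 and 73.7 CPM in LIP 90, 96 and 97, with a log2 fold change of -0.34 (SE 0.26, adjusted p = 0.544), or -0.74 (SE 0.12, adjusted p = 0.00457) without LIP 90. Soat2 was at 0.422, 0.715 and 0.680 CPM in the CTL libraries of day 2, at 1.52 CPM in LIP 90, and at 43.3 and 32.2 CPM in LIP 96 and LIP 97, at a log2 fold change of 5.38 (SE 1.15, adjusted p = 0.12) with all libraries and 5.96 (SE 0.25, adjusted p = 2.2e-06) without LIP 90.

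Fatty acid synthesis and desaturation, which is driven mainly by SREBP1, comprised 11 genes, of which 8 were tested on day 0 and 10 on day 2. On day 0, 6 of the 8 had a positive log2 fold change (median 0.18), 4 had an unadjusted p under 0.05, and 1 passed. Elovl5, a fatty acid elongase, was at 152, 178 and 169 CPM in CTL and at 127, 115 and 129 CPM in LIP, and fell by 0.42 on the log2 scale (SE 0.08, adjusted p = 0.0478 by edgeR). That call was lost in the fit of 12 libraries and when any library of day 0 but CTL 94 was left out, with adjusted p up to 0.339. Without CTL 94, 2 of the 8 rose as well, Scd2 at 1.04 (adjusted p = 0.00111 by edgeR, against 0.81 and 0.0723 with all libraries) and Acaca at 0.31 (adjusted p = 0.0447, against 0.33 and 0.0758). On day 2, 0 of the 10 passed with all libraries (4 had an unadjusted p under 0.05) and 8 fell without LIP 90 (13.9% of all genes tested were called there). Their log2 fold changes were negative for 9 of the 10, with a median of -0.58, or -0.91 without LIP 90. The median of the interaction was -0.84, or -1.20 without LIP 90. Fads2 and Scd1 were at or near the limit of 3 counts on day 0 (at most 0.800 and 0.788 CPM) and at 84.4 to 110 and 45.2 to 117 CPM in the CTL libraries of day 2. Scd2 rose over the culture in CTL by 5.59 (SE 0.24), and Elovl6 by 2.44 (SE 0.20).

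In the isoprenoid branch, which takes farnesyl units away from sterols to modify proteins, 0 of 14 genes passed in LIP against CTL on either day, with or without LIP 90 (edgeR; 2 on day 0, 0 on day 2 and 2 on day 2 without LIP 90 had an unadjusted p under 0.05). Rabggtb, Zmpste24 and Icmt rose over the culture in CTL by 1.23 (SE 0.13), 0.93 (SE 0.14) and 0.65 (SE 0.10), and Ggps1 fell by 0.83 (SE 0.11) on the log2 scale. Of 10 genes of T cell activation and division, 9 rose in CTL and 10 in LIP over the culture, beside 35.3% and 36.6% of all genes tested. They were led in CTL by Top2a at 5.50 (SE 0.39), Cdk1 at 5.37 (SE 0.31), Ccnb1 at 5.02 (SE 0.39) and Tfrc at 4.91 (SE 0.48). On day 0, Cd69, an early activation marker, was at 386, 296 and 215 CPM in CTL and at 176, 151 and 152 CPM in LIP and fell by 0.90 on the log2 scale (SE 0.16, adjusted p = 0.0375 by edgeR). That call was lost in the fit of 12 libraries and without CTL 88, LIP 92, LIP 93 or LIP 94, with adjusted p up to 0.316. Without CTL 94, 2 of the 10 fell on day 0 (Cd69 and Myc) and 2 rose, Top2a at 1.14 (adjusted p = 0.0272 by edgeR) and Mki67 at 0.96 (adjusted p = 0.0268). Mki67 was at 63.7, 28.6 and 126 CPM in CTL 88, 89 and 94 of day 0 and at 76.9, 94.5 and 92.6 CPM in the LIP libraries. On day 2, 0 of the 10 passed with all libraries (0 had an unadjusted p under 0.05), and without LIP 90 only Tfrc, the transferrin receptor, did (-1.51, SE 0.25, adjusted p = 0.00555). Without LIP 90, 5 of the 10 had a positive and 5 a negative log2 fold change, from -1.51 to 0.43, and 5 had an unadjusted p under 0.05. Of the division genes named above, Top2a stood at 0.01 (SE 0.12), Mki67 at -0.12 (SE 0.13), Cdk1 at -0.35 (SE 0.13, adjusted p = 0.114 by edgeR) and Ccnb1 at -0.41 (SE 0.15, adjusted p = 0.0977). The values of Mcm2 and Mcm5, also of this list, are not given here. For Cdk1 and Ccnb1, as for the 8 genes, LIP 96 and LIP 97 lay below every CTL library (80.3 and 80.3 CPM against 91.0 to 120 CPM for Cdk1, and 64.7 and 89.6 CPM against 100 to 105 CPM for Ccnb1).

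The 8 genes varied together across the 12 libraries. After centring each gene on the mean of each day, Pearson's r between pairs of the 8 ranged from 0.77 (Insig1 and Srebf2) to 0.98 (Hmgcs1 and Idi1), a description in which all points share libraries and in which LIP 96 and LIP 97 of day 2 lie far from the others. Among the 10 other genes most like the mean profile of the 8, of 15467 ranked, were Ppm1f (r = 0.983), Acaca (0.983), Hsd17b7 (0.976), Pcyt2 (0.968), Pdk1 (0.945), Cluh (0.945) and Zmiz1 (0.945). In all, 3 of the 10 belong to the other cholesterol enzymes, 1 to the list of uptake and 1 (Acaca) to that of fatty acid synthesis. With each group centred on its own mean, or with no centring, 2 of the 10 genes were among the top 10. Fdps ranked 5557th of the 15467 (r = 0.23).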

How the data were processed

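Per the labels, the submitters' processing notes name FastQC 0.11.9, Trimmomatic 0.38, Bowtie2, RSEM 1.3.0 and edgeR with the GRCm39 build; the study's methods name another Trimmomatic version. Libraries were directional and rRNA-depleted. The authors deposited expected counts per gene from RSEM, which need not be whole (73267 values were not) and were rounded to whole numbers here. The authors' tables of each day were used for gene symbols only; their fold changes, p-values and FDR were not used, nor were 2 columns of per-sample values that match no labelled sample. Per the labels, the culture held IL-2 at 10 ng/ml and anti-TCRβ and anti-CD28 at 1 µg/ml each, and the study's methods give other amounts of IL-2 and anti-TCRβ.

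Groups and library numbers were taken from the labels. CPM was computed after TMM normalization over 12 libraries, and divided by the length of the GENCODE M39 canonical transcript for levels per kilobase. Genes were filtered with filterByExpr and fitted with the quasi-likelihood method of edgeR 4.0.16 (R 4.3.3), with the 6 libraries of a day for LIP against CTL and all 12 for the day effect and the interaction. Benjamini-Hochberg adjustment ran over all genes tested, with a threshold of 0.05, and SEs came from the same fits. DESeq2 1.42.0, other normalizations and filters and leaving out each library were tried as alternatives. The scripts were tested on simulated data. Likeness was Pearson's r of log2(CPM + 0.5), centred on each day, with the mean of the 8 genes. The 8 genes and the lists of other genes were chosen with earlier results of these data known. Genes outside the 8 were named where they passed in LIP against CTL, had the largest day effects of their list in CTL, or ranked among the 10 most like the 8. Others (the 15 enzymes, genes that passed without LIP 90 or without CTL 94, Scap, Abca1, Mki67, Soat1 and Soat2) were chosen after their values were seen. Some genes are not reported here by name.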

Additional observations from a re-analysis of the deposited data

How the results depend on the processing

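No paired analysis was possible because the LIP and CTL groups share fewer than 2 library numbers on either day. On day 0, the 60 genes with an adjusted p under 0.05 became 206 with DESeq2, 645 with no filter, 12 in the fit of 12 libraries and 13 to 658 when each library was left out, 658 being without CTL 94. On day 2, the count of 0 became 489 with DESeq2, 662 with no filter, 1 with a minimum of 10 counts, 775 in the fit of 12 libraries and 0 to 2014 when each library was left out, 2014 being without LIP 90. For the interaction, 8 of all 15475 genes tested had an adjusted p under 0.05, a count that does not refer to the 8 genes described. It became 531 with DESeq2, 815 with no filter and 1 to 1596 when each library was left out, 1596 being without LIP 90. For the other 15 enzymes, the count of 0 became 2 on day 0 and 5 in the interaction with no filter, and leaving out each library gave 0 to 2 on day 0, 0 to 8 on day 2 and 0 to 9 in the interaction. The cause was not tested. The day effects stayed within 1.5 times their counts, and among the enzymes Lbr lost its call in CTL without CTL 89 of day 0. With no normalization factors, the 8 genes with every LIP library below every CTL library on day 2 went from 0 to 1. The fold changes of the 8 genes kept their direction under all alternatives run. DESeq2 was run for the whole table and the 15 enzymes, not for the other lists. The scaling and LIP 90 alternatives for groups that do not overlap were chosen after seeing the data. Depth limits the lowest genes only, since 3 counts equal up to 0.480 CPM and the smallest count of the 8 genes was 100.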
